A study of Capra hircus with 12 samples.

Results

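The transcripts of 7 goat genes of the p53 circuit were followed through all 12 RNA-seq libraries of cultured temporomandibular joint (TMJ) cartilage cells: MDM2 and MDM4, which restrain p53, and CDKN1A, CCNG1, TP53INP1, SESN1 and SESN2, which p53 switches on. They were taken by symbol from tables of 28910 gene rows, and each of the 7 had 1 row in both tables and passed the filter on low counts in every comparison. The genes were chosen with values of these data in view, and MDM4 was chosen by its lower counts in the MLC libraries labelled IL-1β + LOXL2. Its values in MLC are therefore given as a description, without a test.

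The cells came from the cartilage of TMJs of female goats less than a year old, obtained from abattoirs and were used at low passage, as superficial layer cells (SLC) and medial layer cells (MLC). Cells of each layer were exposed to IL-1β, an inflammatory cytokine that drives cartilage breakdown, for an hour, either alone or after overnight transduction with an adenovirus carrying LOXL2, a lysyl oxidase family enzyme that crosslinks collagen. The 4 groups, SLC IL-1β, SLC IL-1β + LOXL2, MLC IL-1β and MLC IL-1β + LOXL2, held 3 libraries each, all with IL-1β. The study's methods name an empty adenovirus for the flow cytometry of goat cells, but neither its RNA-seq culture methods nor the labels say whether IL-1β-only cells received it, so an effect of LOXL2 and an effect of the virus cannot be told apart. Whether the 3 libraries of a group came from separate animals or cultures is not given in the sources used here, so the p-values measure the spread between these libraries, which may be technical.

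Library totals ranged from 14158607 to 28931652 counts. The first SLC IL-1β + LOXL2 replicate stood apart from the rest of its group: a chi-square per degree of freedom over genes was 159 and 58.1 against the other SLC IL-1β + LOXL2 libraries and 29.2 between those, while pairs within the IL-1β groups gave 2.23 to 9.37. Replicate 1 of MLC IL-1β + LOXL2 was also apart from its group, at 15.2 and 33.9 against 5.81 between the other libraries. Transcripts of the goat LOXL2 gene itself were not higher in the IL-1β + LOXL2 libraries, at 8541 to 10388 normalized counts against 11582 to 11894 in SLC and 13809 to 15250 against 14291 to 16295 in MLC. The goat gene therefore does not check the LOXL2 labels, and the sequence carried by the virus is not given in the sources used here. Cartilage markers gave mixed values. The study describes the condylar tissue as fibrocartilage, and COL1A1 stood at 30599 to 39427 CPM, counts scaled by the library total. The most abundant chondrocyte marker was COL11A1, at 565 to 1317 CPM. Aggrecan (ACAN) was at 27.5 to 437, the chondrocyte transcription factor SOX9 at 13.0 to 93.2 and HAPLN1 at 4.23 to 25.0. COL2A1 and COL9A1, both collagens of hyaline cartilage, were at 0 in the 3 SLC IL-1β libraries. Elsewhere they reached 20.9 and 19.0 CPM. MATN3 reached 0.602 CPM at most, and PRG4, a superficial layer marker, was at 3.80 to 7.29. The 5 smooth muscle and pericyte markers, mostly ACTA2, summed to 832 to 933 CPM in MLC IL-1β and 1081 to 1368 in MLC IL-1β + LOXL2, and to 1454 to 1865 and 1612 to 2017 in SLC, and 0 of the 5 was absent in any group. They thus moved with the layer and, in MLC, with LOXL2, and their part in the results for the 7 genes was not tested. In bulk libraries such as these, fewer cells of a type and less RNA per cell cannot be told apart. The 6 macrophage and leukocyte markers together reached 58.5 to 141 CPM, mostly CD14 (49.1 to 133), with CD68 at 4.15 to 12.2 and PTPRC at 0.103 at most, and the 5 endothelial markers together 2.97 to 5.23 CPM.

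p53 is a transcription factor that is kept scarce in unstressed cells. MDM2 is the ubiquitin ligase that marks p53 for degradation and is itself a p53 target, which closes a feedback loop, and MDM4 (also MDMX) is its relative that masks the activation domain of p53 and pairs with MDM2. When p53 is released it raises CDKN1A (p21), which halts cyclin-dependent kinases, together with genes of autophagy, antioxidant defence, DNA repair and apoptosis. In the goat genome assembly ARS1.2, MDM2 (gene 102173163) lies on chromosome 5 at 44356194-44382812 and MDM4 (102191635) on chromosome 16 at 1637835-1688391. CDKN1A (102179898) lies at chromosome 23, 38156010-38164325, CCNG1 (102184904) at chromosome 7, 35432746-35440042, and TP53INP1 (102184356) at chromosome 14, 12791766-12807726. SESN1 (102187135) lies at chromosome 9, 28361840-28474910, and SESN2 (102175632) at chromosome 2, 10840712-10858511. RefSeq annotates all 7 as protein-coding. Proteins were not measured in these libraries.

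In SLC, whose values were not used to choose it, MDM4 had the lowest log2 fold change of the 7 genes between IL-1β + LOXL2 and IL-1β cells. SLC is not a fully independent check of a choice made in MLC. Deviations of replicate 1 in the IL-1β + LOXL2 groups went together across layers (correlation 0.70). Normalized counts, which correct each library for depth, were 652, 785 and 455 in replicates 1 to 3 of SLC IL-1β and 336, 203 and 182 in SLC IL-1β + LOXL2. Every SLC IL-1β + LOXL2 library thus lay below every SLC IL-1β library. The group means were 631 ± 166 and 241 ± 83.4 (SD, n = 3), a log2 fold change of -1.39 (SE 0.29, 95% interval -2.06 to -0.72), or 2.61-fold lower. This change did not pass edgeR's quasi-likelihood test after Benjamini-Hochberg adjustment over 14103 genes (adjusted p = 0.0706). That was the smallest adjusted p in SLC, but several genes tied at it, among them CDKN1A and SESN3. SESN3, IGFBP3 and GADD45A had a smaller unadjusted edgeR p than MDM4. The two-sided exact permutation p was 0.1, the smallest that 3 against 3 libraries allow. Of all genes tested in SLC, 1.45% had a log2 fold change this low or lower.

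In MLC, where MDM4 had been selected for this difference, its normalized counts were 499, 421 and 438 with IL-1β and 259, 176 and 166 with IL-1β + LOXL2. Again no library of one group reached the other. The means were 453 ± 40.7 and 200 ± 50.7 (SD, n = 3), a log2 fold change of -1.17. In each IL-1β + LOXL2 group replicate 1 was the highest of the 3. Whichever SLC library was left out, the log2 fold change of MDM4 in SLC kept its sign, at -1.71 to -1.20. In MLC it ran from -1.40 to -1.05, which is no test, since these libraries chose MDM4.

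MDM2, the partner of MDM4, was nearly level among IL-1β libraries and more scattered after LOXL2. In MLC its normalized counts were 1235, 1192 and 1152 with IL-1β and 1049, 826 and 931 with IL-1β + LOXL2. The groups did not overlap, and MDM2 fell by 0.35 on the log2 scale (SE 0.10, edgeR adjusted p = 0.0346), or 1.28-fold. In SLC it was 1195, 1185 and 1119 against 1203, 835 and 934. There replicate 1 of SLC IL-1β + LOXL2 was the highest of all 6 libraries while the other 2 were the lowest, so the groups overlapped (log2 fold change -0.23, SE 0.15, edgeR adjusted p = 0.256).

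Within a library, MDM4 reads per MDM2 read averaged 0.538 ± 0.128 in SLC IL-1β and 0.239 ± 0.0422 in SLC IL-1β + LOXL2 (SD, n = 3 each, two-sided exact permutation p = 0.1). In SLC, MDM4 was thus lower relative to MDM2 in every IL-1β + LOXL2 library. In MLC, where the choice of MDM4 bears on the ratio as well, it was 0.379 ± 0.0252 and 0.213 ± 0.0339, given as a description. These ratios are of reads and do not correct for transcript length.

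**Figure D1:**
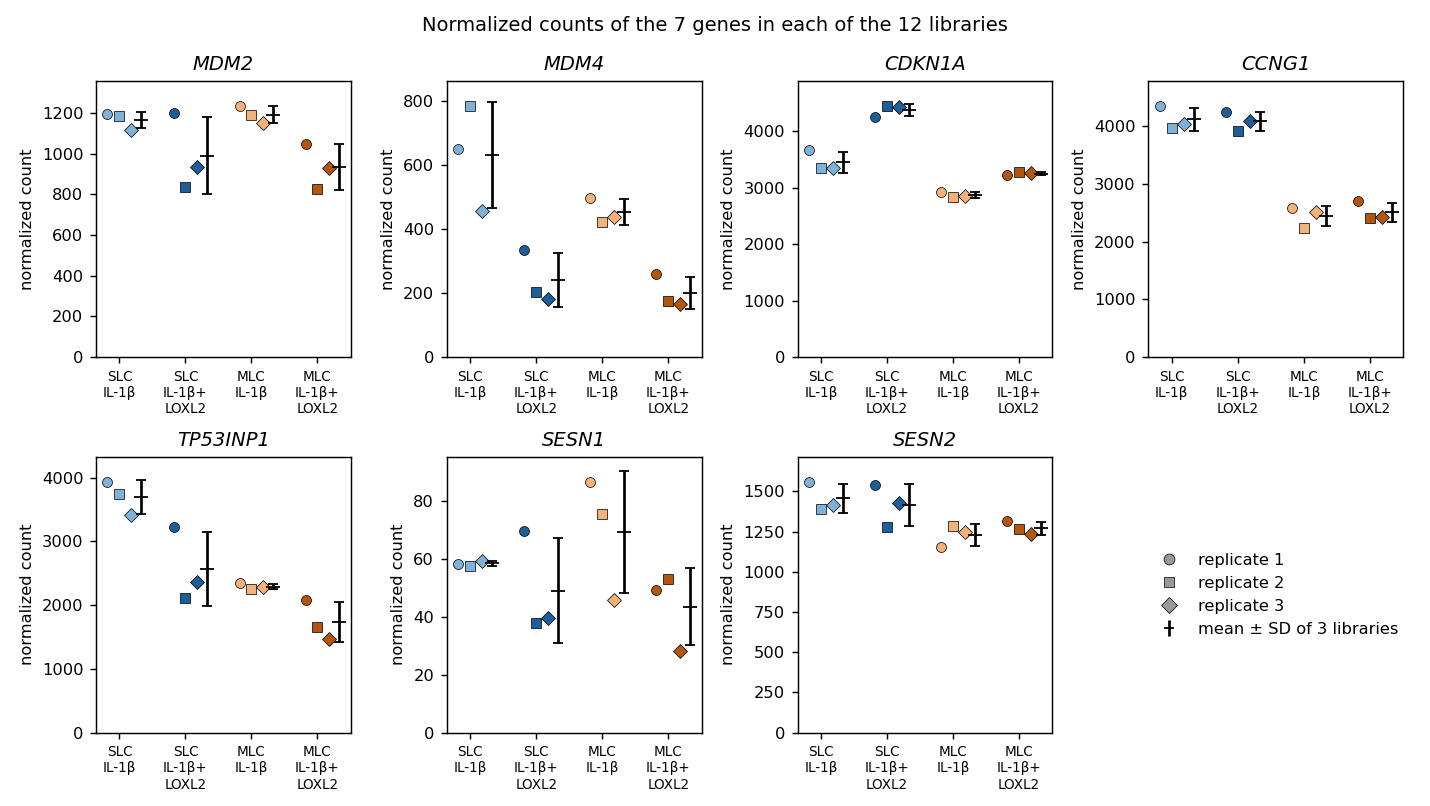
Normalized counts (y axis, from 0) of each of the 7 genes in the 12 libraries, by group (x axis). Circles, squares and diamonds are replicates 1, 2 and 3 of a group, and the bar is the mean ± SD of 3 libraries. MDM4 does not overlap between IL-1β and IL-1β + LOXL2 in either layer (455 to 785 against 182 to 336 in SLC), CDKN1A stands higher in the IL-1β + LOXL2 libraries of each layer, and CCNG1 and SESN2 overlap. The MLC values of MDM4, which chose it, are a description.

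CDKN1A, the inhibitor that arrests the cell cycle downstream of p53, was higher in every IL-1β + LOXL2 library than in any IL-1β library of its layer. In SLC it had 3664, 3341 and 3345 normalized counts with IL-1β and 4248, 4444 and 4433 with IL-1β + LOXL2. Means were 3450 ± 185 and 4375 ± 110 (SD, n = 3), a log2 fold change of 0.35 (SE 0.094, 95% interval 0.13 to 0.57, edgeR adjusted p = 0.0706, exact permutation p = 0.1). In MLC the counts were 2930, 2830 and 2852 against 3215, 3276 and 3260, a log2 fold change of 0.18 (SE 0.081, edgeR adjusted p = 0.127). The groups did not overlap in either layer, and neither difference passed the adjusted threshold. CDKN1A reads per MDM2 read averaged 2.96 ± 0.127 and 4.53 ± 0.914 in SLC and 2.41 ± 0.0588 and 3.51 ± 0.450 in MLC (SD, n = 3), without overlap (exact permutation p = 0.1 in each layer). This ratio restates the values of both genes and adds no further support.

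TP53INP1, a stress-induced p53 target that acts in autophagy and in p53 phosphorylation, was lower in every IL-1β + LOXL2 library than in any IL-1β library of its layer. In MLC it had 2341, 2256 and 2279 normalized counts with IL-1β and 2081, 1660 and 1466 with IL-1β + LOXL2, and fell by 0.40 on the log2 scale (SE 0.12, edgeR adjusted p = 0.0332), or 1.32-fold. In SLC it had 3934, 3740 and 3406 against 3218, 2116 and 2358, a log2 fold change of -0.52 (SE 0.17, edgeR adjusted p = 0.0745). Replicate 1 was the highest of each IL-1β + LOXL2 group, as for MDM4.

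CCNG1, which encodes cyclin G1, a p53 target that recruits a phosphatase to MDM2, differed little with LOXL2. Its SLC values were 4348, 3966 and 4037 against 4251, 3914 and 4085 normalized counts, and its MLC values 2581, 2242 and 2513 against 2697, 2402 and 2422. The ranges overlapped in both layers, and the 95% intervals of the log2 fold change were -0.23 to 0.22 in SLC and -0.17 to 0.24 in MLC. These 2 targets of p53 thus differed in their values: TP53INP1 reads per CCNG1 read averaged 0.897 ± 0.0502 and 0.625 ± 0.116 in SLC, and 0.940 ± 0.0572 and 0.689 ± 0.0832 in MLC (SD, n = 3, no overlap, exact permutation p = 0.1 in each layer). The ratio sets a gene that was lower with LOXL2 against a level one, so its lack of overlap adds no further support.

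The sestrins bind the GATOR2 complex and restrain mTORC1, and they also curb oxidants. SESN2, which is a target of ATF4 as well as of p53, had 1560, 1391 and 1418 normalized counts in SLC IL-1β and 1538, 1277 and 1427 in SLC IL-1β + LOXL2. In MLC it had 1156, 1284 and 1251 against 1314, 1265 and 1232. The groups overlapped in both layers, and the 95% intervals of the log2 fold change were -0.30 to 0.23 and -0.15 to 0.24. SESN1 rested on few reads, 28 to 82 raw counts a library. Its normalized counts were 58.4, 57.7 and 59.3 against 69.8, 37.8 and 39.7 in SLC (log2 fold change -0.25, SE 0.27, edgeR adjusted p = 0.487). In MLC they were 86.6, 75.5 and 45.8 against 49.2, 53 and 28.2 (log2 fold change -0.68, SE 0.29, edgeR adjusted p = 0.105). The SESN1 groups overlapped in both layers, and at this depth its interval in MLC, -1.32 to -0.05, was wider than that of any other of the genes tested there.

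Counted together, 2 of the 6 genes tested in MLC were called at an adjusted p under 0.05, MDM2 and TP53INP1, both lower, beside 21.6% of all genes tested in MLC. Groups did not overlap for 3 of these 6 genes in MLC, beside 41.4% of all genes. In SLC 0 of 7 were called by edgeR, as were 0% of all 14103 genes. At an unadjusted p under 0.05, MDM4, CDKN1A and TP53INP1 passed in SLC, 3 of 7, beside 43.3% of all genes, and the same 3 of 7 did not overlap between groups, beside 49.0% of all genes. DESeq2's Wald test called the same 3 genes in SLC (31.9% of all genes), and so did a fit that shared its spread over all 12 libraries (41.1%). The shares of the 7 genes were thus close to those of genes at large.

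The edgeR calls in SLC depended on 1 library, as well as on the test and on how the spread was shared. Without replicate 1 of SLC IL-1β + LOXL2, edgeR called 5 of 7 genes, CDKN1A higher and MDM2, MDM4, SESN1 and TP53INP1 lower, and 61.7% of all genes. In MLC, leaving out replicate 1 of IL-1β + LOXL2 gave 4 of 6 genes, CDKN1A, MDM2, SESN1 and TP53INP1, and 48.1% of all genes, whereas leaving out any 1 of the other 5 libraries left 0 of 6, and so did the fit on all 12 libraries. The direction of MDM2, CDKN1A and TP53INP1 was the same in each of these fits. So was that of MDM4, whose direction in MLC was the ground of its choice and is no test there.

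**Figure D2:**
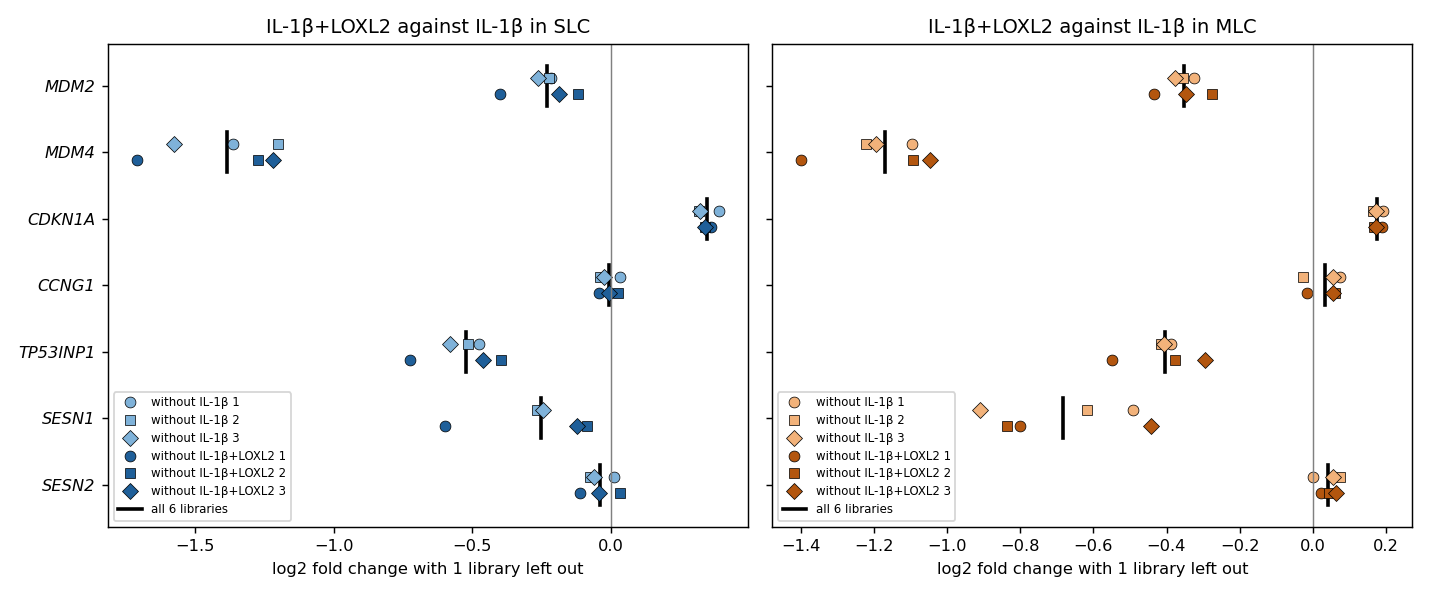
Log2 fold change of IL-1β + LOXL2 against IL-1β (x axis) for each gene (rows) in SLC (left) and MLC (right), with all 6 libraries of the layer (black bar) and after leaving out any single library (symbols). MDM4 stays at -1.20 or lower in SLC, whereas CCNG1 lies around 0. In MLC, whose values chose MDM4, it lies at -1.05 or lower, as a description.

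No gene of the 6 tested differed between layers in its response to LOXL2 (interaction in all 12 libraries, 0 of 6, edgeR adjusted p of at least 0.958, beside 0% of 14519 genes and 327 genes at an unadjusted p under 0.05, none of them among the 6). The intervals were wide. For CDKN1A the MLC response minus the SLC response was -0.18 on the log2 scale (95% interval -0.41 to 0.04), and for SESN1 it was -0.44 (-1.38 to 0.50).

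**Figure D3:**
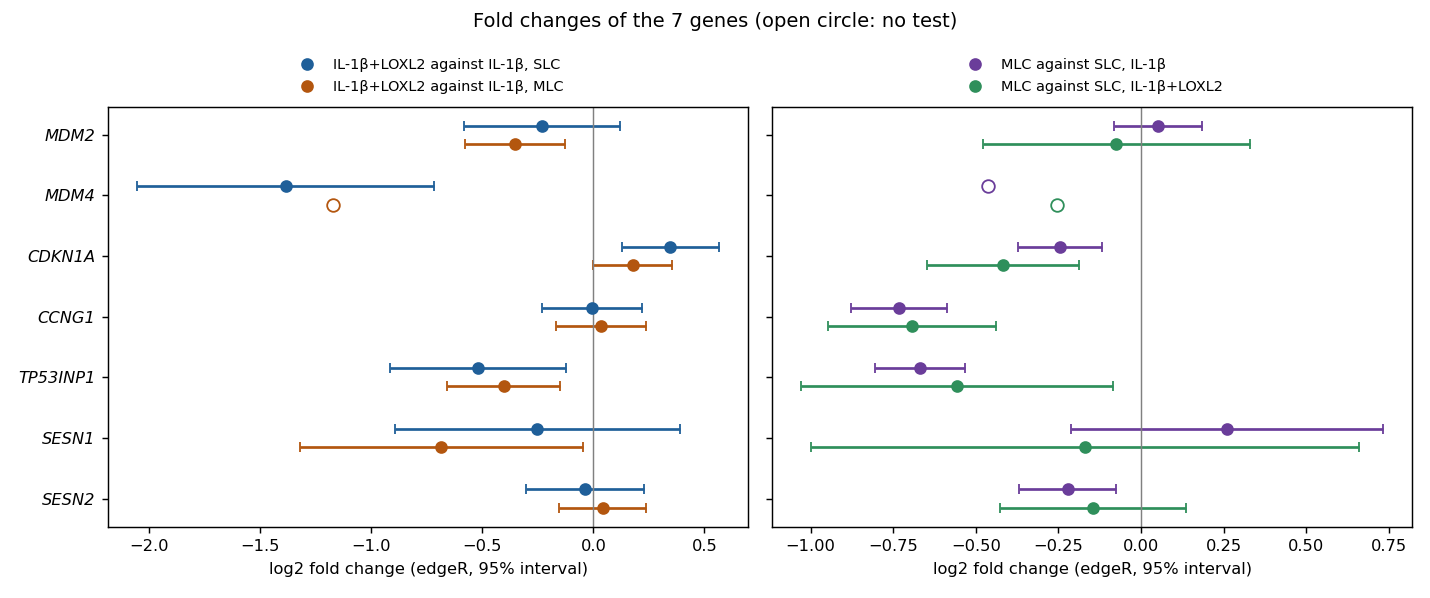
Log2 fold changes (x axis) of the 7 genes (rows) for IL-1β + LOXL2 against IL-1β in each layer (left) and for MLC against SLC under each treatment (right), with edgeR's 95% intervals. Open circles are MDM4 values given without a test. In the left panel the SLC interval of MDM4, -2.06 to -0.72, lies lowest, and in the right panel CCNG1 and TP53INP1 lie lowest.

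The same genes were then compared between layers. Each layer was deposited as its own table, and a layer and any processing batch of that layer cannot be told apart, here or in the pathway lists below. Library totals also differed, at 18751323 to 22123593 counts in SLC IL-1β and 14158607 to 15330697 in MLC IL-1β. With IL-1β alone, 4 of 6 genes tested were lower in MLC than in SLC, beside 46.9% of all genes called in that comparison. CCNG1 averaged 4117 ± 203 normalized counts in SLC and 2445 ± 179 in MLC (SD, n = 3), a log2 fold change of -0.73 (SE 0.067, edgeR adjusted p = 6.55e-07). TP53INP1 averaged 3693 ± 267 and 2292 ± 43.8 (-0.67, SE 0.064, edgeR adjusted p = 9.44e-07). CDKN1A was lower by a smaller step (-0.25, SE 0.060, edgeR adjusted p = 0.00379), and so was SESN2 (-0.22, SE 0.069, edgeR adjusted p = 0.0159). These 4 genes did not overlap between layers, beside 56.1% of all genes. MDM2 overlapped between layers (0.05, 95% interval -0.08 to 0.19), as did SESN1 (0.26, -0.21 to 0.73). MDM4, untested here, had 455 to 785 normalized counts in SLC and 421 to 499 in MLC. SESN2 lost its call without replicate 1 of SLC IL-1β (edgeR adjusted p = 0.0871), without replicate 1 of MLC IL-1β (0.0807) and in the fit on all 12 libraries (0.0904).

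With IL-1β + LOXL2, CCNG1 (-0.69, SE 0.11, edgeR adjusted p = 0.00501) and CDKN1A (-0.42, SE 0.098, edgeR adjusted p = 0.0265) were again lower in MLC, 2 of 6 beside 16.1% of all genes. TP53INP1 was at 3218, 2116 and 2358 normalized counts in SLC and 2081, 1660 and 1466 in MLC, without overlap, and was not called (-0.56, SE 0.20, edgeR adjusted p = 0.112). Replicates of the same number deviated together across these groups (correlations of 0.70, 0.27 and 0.24), although replicate 3 of one group and replicate 2 of the other correlated more closely (0.56) than the pairs numbered 2 and 3. With the replicate number as a block TP53INP1 was called as well (-0.55, edgeR adjusted p = 0.00827), which made 3 of 6, while all genes called went from 2268 to 3884. Groups did not overlap for 3 of 6 genes, beside 35.1% of all genes. The call of CDKN1A was lost when any 1 of 5 of the 6 libraries was left out (edgeR adjusted p up to 0.147), the exception being replicate 1 of SLC IL-1β + LOXL2, whereas CCNG1 stayed called.

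Relatives of the 7 genes gave mixed values. SESN3, the remaining sestrin, had 1093 to 1320 normalized counts in SLC IL-1β and 727 to 888 in SLC IL-1β + LOXL2, without overlap (log2 fold change -0.61, SE 0.12, edgeR adjusted p = 0.0706). In MLC its log2 fold change was -0.27 (edgeR adjusted p = 0.207). CCNG2, the other G-type cyclin, gave -0.27 in SLC and -0.16 in MLC (edgeR adjusted p = 0.0841 and 0.495). CDKN1C (p57), a CDK inhibitor of the p21 family, rose in MLC from 417 ± 76.1 to 572 ± 24.2 normalized counts (SD, n = 3, log2 fold change 0.45, edgeR adjusted p = 0.0325), and in SLC its groups overlapped (0.43, edgeR adjusted p = 0.138). CDKN1B (p27), at -0.14 and -0.11, and TP53INP2, at -0.09 and -0.00047, passed in neither layer (edgeR adjusted p of 0.355 or more).

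The wider pathway was counted over 7 lists written from general knowledge: 100 of the 109 genes written were in the tables and 95 were tested in each layer. In SLC edgeR called 0 of them. In MLC it called 24, 12 higher and 12 lower, which is 25.3% of 95 beside 21.6% of all genes, and the median log2 fold change of the 95 was -0.00047 beside 0.0079 for all genes. Among p53 core genes and regulators 2 of 26 rose, the ribosomal proteins RPL11 (0.39, edgeR adjusted p = 0.0267) and RPL5 (0.32, 0.0308), both of which bind MDM2. In the same list 6 of 26 fell, led by ATM, the kinase that signals DNA breaks to p53 (-0.85, edgeR adjusted p = 0.0190), and HUWE1, a further ubiquitin ligase of p53 (-0.69, 0.0190). The damage-signalling kinase and the ligase were therefore on the same side as MDM2.

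Among arrest targets, CDKN1C and GADD45A (0.37, edgeR adjusted p = 0.0237) rose and E2F7 (-0.83, 0.0475) and ZMAT3 (-0.36, 0.0448) fell, 2 and 2 of 11. E2F7 represses cell cycle genes and ZMAT3 binds RNA. Among apoptosis targets 4 of 15 rose, with SIVA1 (0.58, edgeR adjusted p = 0.0229) and BAX, the pore former of the mitochondrial outer membrane (0.41, 0.0237), at the top, and 1 fell, APAF1, the core of the apoptosome (-0.49, 0.0482). Among metabolic and antioxidant targets 2 of 14 rose, the glutathione peroxidase GPX1 (0.57, edgeR adjusted p = 0.0207) and the mitochondrial reductase FDXR (0.50, 0.0250), and 0 fell. Among DNA repair targets RPS27L rose (0.39, 0.0300) and REV3L, the catalytic subunit of a translesion polymerase, fell (-0.69, 0.0207), of 12.

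Of the GATOR complex genes, through which sestrins act, 1 of 8 rose, the GATOR1 subunit NPRL3 (0.38, edgeR adjusted p = 0.0397). Of the cyclins, kinases and PCNA that CDKN1A binds, CCNE2 (-0.57, edgeR adjusted p = 0.0306) and CDK6 (-0.44, 0.0199) fell and 0 of 11 rose. RPL11 and RPL5 belong to families with many near-identical copies, so their counts are uncertain. As for the 6 genes, the 24 calls became 51 without replicate 1 of MLC IL-1β + LOXL2 and 0 without either replicate 1 or 3 of MLC IL-1β, without replicate 2 of MLC IL-1β + LOXL2, or in the fit on all 12 libraries. They became 10 without replicate 2 of MLC IL-1β and 7 without replicate 3 of MLC IL-1β + LOXL2.

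In SLC, where no list gene was called, several of the most abundant genes of the lists had values of the same sign as in MLC. RPL11 had a log2 fold change of 0.73 (edgeR adjusted p = 0.0715), BAX 0.78 (0.0706), GADD45A 0.54 (0.0706), ZMAT3 -0.52 (0.0881), REV3L -0.84 (0.0706) and CDK6 -0.65 (0.0706). XPC, the most abundant repair target, had 0.33 (0.0923), and CCND1, which encodes cyclin D1, had -0.08 (0.596). Other abundant list genes also had small values: PHLDA3 -0.27 (edgeR adjusted p = 0.262), NPM1 0.20 (0.160) and TP53INP2 -0.09 (0.480). The share of all genes with the same sign in both layers was not counted, so these signs are not particular to the lists.

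**Figure D4:**
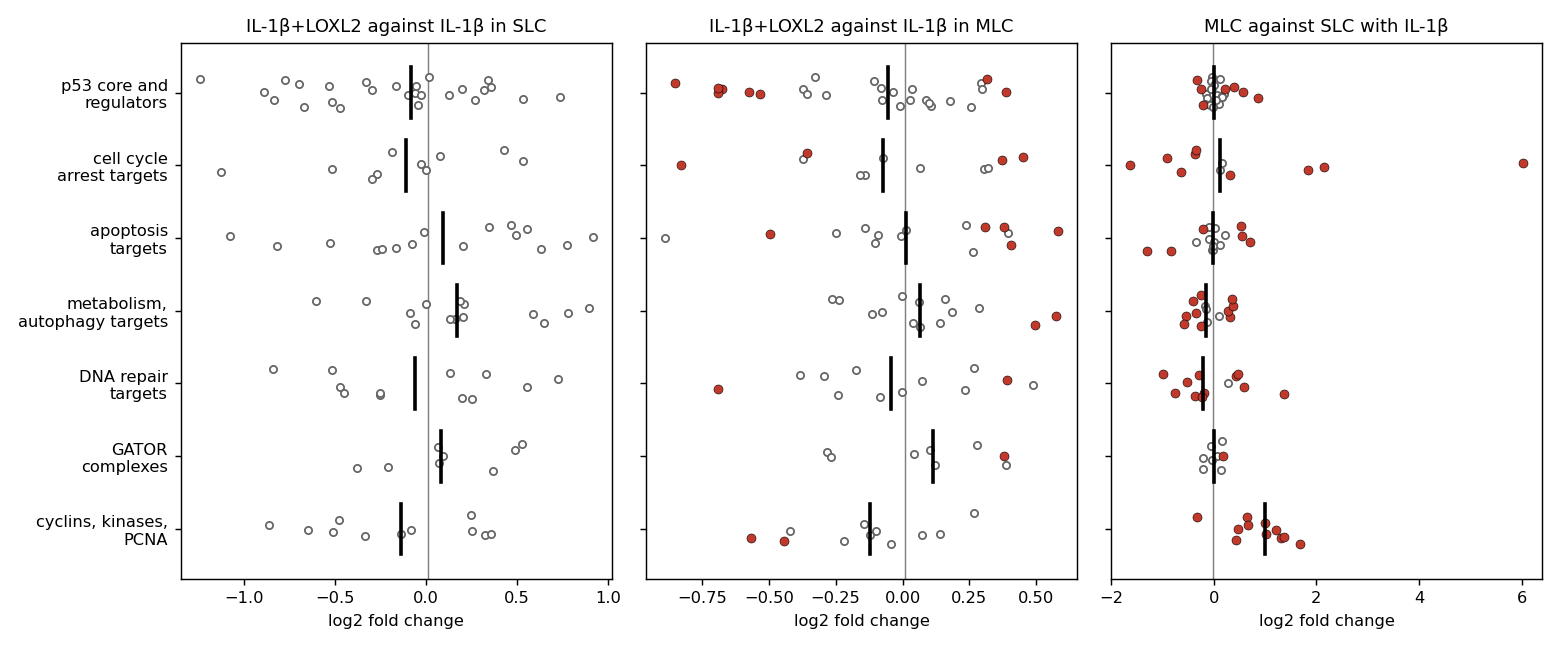
Log2 fold change (x axis) of each tested gene of 7 pathway lists (rows) for IL-1β + LOXL2 against IL-1β in SLC and in MLC and for MLC against SLC with IL-1β. Filled red circles are genes at an edgeR adjusted p under 0.05, open circles the others, black bars the list medians and the grey line the median of all genes. No SLC gene is filled, MLC has 12 filled on each side, and in the right panel 10 of 11 cyclin, kinase and PCNA genes lie above 0.

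Between layers the list with the largest median difference was the one CDKN1A acts on. With IL-1β, 10 of the 11 cyclin, kinase and PCNA genes were called higher in MLC and 1, CCND2, lower (-0.33, edgeR adjusted p = 3.07e-04), beside 46.9% of all genes called, and the list median was 1.00 on the log2 scale beside -0.01 for all genes. CCNE2 (1.68, edgeR adjusted p = 5.75e-06) and the replication clamp PCNA (1.36, 1.00e-08), which CDKN1A binds directly, led it. With IL-1β + LOXL2, 8 of 11 were called higher and 0 lower, beside 16.1% of all genes called. CDKN1A, at -0.25, and CDKN1C, at -1.62 (edgeR adjusted p = 1.64e-08), lay on the other side. The share of cycling cells was not measured in these libraries.

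Other p53 targets were called in both directions between layers with IL-1β. The shares called were 81.8% of the arrest, 91.7% of the DNA repair, 37.5% of the apoptosis and 71.4% of the metabolic and antioxidant targets, beside 46.9% of all genes. Of 11 arrest targets 4 were higher in MLC and 5 lower. SFN (14-3-3 sigma) had 0 to 3.89 normalized counts in SLC and 113 to 144 in MLC, TP53I11 was higher in MLC, at 222 ± 22.7 and 976 ± 165 (SD, n = 3, edgeR adjusted p = 3.26e-09), and ZMAT3 was lower (-0.91, 1.83e-06). Of 12 DNA repair targets 7 were lower, with GADD45B (-0.98, edgeR adjusted p = 2.88e-04) and RRM2B (-0.76, 1.64e-05) lowest, and 4 were higher. Of 16 apoptosis targets 3 were higher, led by IGFBP3 (0.70, 6.14e-04), and 3 lower, led by PERP (-1.31, 0.0254), which had only 3.65 to 19.5 normalized counts in these libraries. Of 14 metabolic and antioxidant targets 6 were lower and 4 higher, and SESN3 was among the lower ones (-0.58, edgeR adjusted p = 3.45e-04).

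Gene length went with the response to LOXL2 across the transcriptome. The log2 fold change and the genomic span of a gene, from its first to its last annotated base, had a Spearman correlation of -0.49 over 14073 genes in SLC and -0.49 over 13637 genes in MLC, as a description over genes that share the same libraries. The 12 list genes called higher in MLC had a median span of 6224.5 bases and the 12 called lower 116244 bases. The corresponding medians were 6688 and 77203 bases for all genes called. Between layers with IL-1β the correlation was -0.12. The part that span, or anything that goes with it in library preparation, had in these differences was not tested.

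Among the 7 genes, SESN1 had the longest span, 113071 bases, and MDM4 followed with 50557, MDM2 with 26619, SESN2 with 17800, TP53INP1 with 15961, CDKN1A with 8316 and CCNG1 with 7297. A smooth trend of each library's log2 CPM on log span was then taken out before the fit. This left MDM4 at -1.16 in SLC and -1.01 in MLC, TP53INP1 at -0.57 and -0.44, and MDM2 at -0.19 and -0.32. The MLC value of MDM4 is a description and no test, since the MLC libraries chose it. MDM2 and TP53INP1 remained called in MLC (edgeR adjusted p = 0.0374 and 0.0288). CDKN1A shrank to 0.15 in SLC and 0.04 in MLC (edgeR adjusted p = 0.277 and 0.740), and CCNG1 went to -0.22 and -0.12. SESN1 went to 0.10 in SLC and -0.43 in MLC. The size of the CDKN1A difference therefore depended on this correction, and that of TP53INP1 did not.

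**Figure D5:**
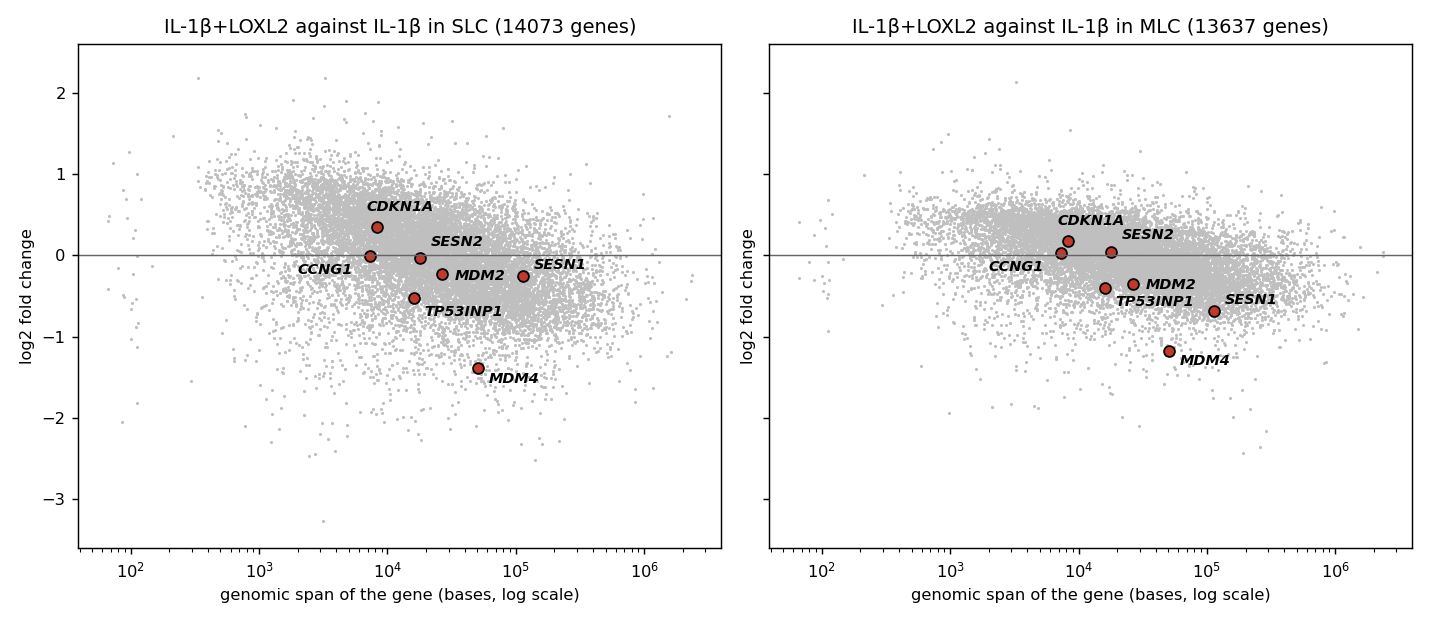
Log2 fold change of IL-1β + LOXL2 against IL-1β (y axis) against genomic span in bases (x axis, log scale) for every gene with an annotated span (grey), in SLC (left) and MLC (right), with the 7 genes in red. Long genes lie lower, with a Spearman correlation of -0.49 in each layer, and MDM4 lies lowest of the 7. In MLC, whose values chose MDM4, its place is a description.

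The genes whose pattern over the 12 libraries was nearest to that of MDM4 were found by the root mean square (RMS) difference of log2 CPM, each gene centred on its own mean, among 13408 genes. They were DMXL1 (0.20), POU2F1 (0.20), ZKSCAN8 (0.21), VPS13C (0.22) and NFAT5 (0.22), where MDM4 itself had an RMS of 0.73 about its mean. Spans of these 5 genes ran from 41522 to 202575 bases. The nearest to MDM2 were RNGTT (0.06), FBXW11 (0.06), INSIG2 (0.06), VKORC1L1 (0.07) and PPM1A (0.07). The nearest to CDKN1A were RYK (0.05), PEA15 (0.07), CAPN1 (0.07), GHITM (0.07) and OLA1 (0.07). Spans ran from 12333 (INSIG2) to 235757 bases (RNGTT) among the genes nearest to MDM2. Among those nearest to CDKN1A they ran from 10183 (PEA15) to 165714 bases (OLA1).

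Set against each other by the same measure, the 7 genes lay at unlike distances. The closest pairs were CDKN1A with SESN2 (RMS 0.18) and MDM2 with SESN2 (0.21). The farthest pair was MDM4 with CDKN1A (0.84), and the gene nearest to MDM4 was TP53INP1 (0.46). The measure grows with a gene's own spread, and the RMS about the mean was 0.73 for MDM4, 0.20 for MDM2 and 0.22 for CDKN1A. The MLC values that chose MDM4 also enter its distances, which are given as a description.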

How the data were processed

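Poly-T purified RNA was sequenced from both ends. The authors aligned the reads to goat assembly ARS1.2 and deposited raw counts per gene, in 1 table a layer. The submitters' processing notes name HISAT2 and featureCounts. Strand and multimapping settings are not given in the sources used here. The labels name an RNeasy kit and the study's methods TRIzol. Of 28910 rows, 1783 sharing a name were left out where both tables were joined (27127 rows).

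Genes were tested in edgeR 4.0.16 (R 4.3.3) on the counts as deposited: TMM, filterByExpr (minimum count 10, total 15), glmQLFit and glmQLFTest in the 6 libraries of a comparison, all 12 for the interaction, without a block, with Benjamini-Hochberg adjustment over all genes and a threshold of 0.05. The script was tested on simulated counts. Normalized counts are from DESeq2 1.42.0 over 12 libraries and are given as mean ± SD. Single values were compared by two-sided exact permutation tests. Depth limits precision for SESN1 most. Same-numbered replicates were compared by correlating deviations from group means. These were 0.70, 0.27 and 0.24 for IL-1β + LOXL2 between layers, where the data, not the labels, gave the pairing and 1 pair of unlike numbers reached 0.56, and at or under 0.1 for at least 1 pair in every other comparison. Coordinates are from RefSeq, ARS1.2.

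The 7 genes, the lists and the tests were chosen with earlier results of these data known. Named list genes are those with up to 2 highest and 2 lowest log2 fold changes among the called genes of a list or, where none was called, among the 4 most abundant. Alternatives were DESeq2 size factors, no filter on low counts, DESeq2's Wald test, a replicate block, removal of the span trend (lowess, span 0.3), a fit on all 12 libraries and leaving out each library. Tables of vehicle-treated cells and of mice were not analysed here. A further gene of the pathway is not reported here.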

Additional observations from a re-analysis of the deposited data

How the results depend on the processing

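Calls depended on single libraries and on how the spread was shared. In these sentences LOXL2 stands for IL-1β + LOXL2 against IL-1β, and changes are log2 fold changes. For LOXL2 in SLC, DESeq2's Wald test called 3 of the 7 genes and 4107 of all genes where edgeR called 0, and a fit on all 12 libraries called 3 and 5962. For LOXL2 in MLC the fit on all 12 libraries called 0 of 6 genes, 0 of all genes and 0 pathway list genes, against 2, 2958 and 24. Between layers with IL-1β it called 3716 genes and 32 list genes against 6545 and 54, and with IL-1β + LOXL2 4196 genes against 2268. The replicate block called 3884 genes in that last comparison, the pairing of which is described with the methods, and 3 of the 6 genes. In the other comparisons the numbers did not pair the samples. The block there called 0 of 7 genes for LOXL2 in SLC, 3 of 6 in MLC (SESN1 in addition), 4 of 6 between layers with IL-1β and 0 of 6 for the interaction. DESeq2 size factors and no filter on low counts changed no call of the 7 genes. Leaving out each library gave 0 to 5 of 7 genes and 0 to 8849 of all genes for LOXL2 in SLC, and 0 to 4 of 6, 0 to 6653 and 0 to 51 list genes in MLC. For MLC against SLC with IL-1β + LOXL2 it gave 1 to 2 of 6, 1155 to 4673 and 10 to 33 list genes. For the interaction it gave 0 of 6 and 0 to 1 of all genes. Small changes changed sign. Without the span trend SESN1 in SLC was 0.10 and CCNG1 in MLC -0.12, and in the fit on all 12 libraries CCNG1 in SLC was 0.0078. With libraries left out, CCNG1 ran from -0.044 to 0.032 in SLC and from -0.027 to 0.075 in MLC, and SESN2 in SLC from -0.11 to 0.033. For MLC against SLC with IL-1β + LOXL2, MDM2 ran from -0.19 to 0.10, MDM4 from -0.47 to 0.076 and SESN1 from -0.34 to 0.17. For the interaction, MDM2 ran from -0.24 to 0.028, MDM4 from -0.023 to 0.52, CCNG1 from -0.035 to 0.069 and TP53INP1 from -0.039 to 0.30. The causes were not tested. Depth limited SESN1 most, and 3 libraries a group limited every test.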
